A study of Homo sapiens with 8 samples.

Results

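Heparan sulfate proteoglycans and the enzymes that build, sulfate and trim their chains were examined as a set of 35 genes, chosen by symbol among the 23228 gene symbols in the authors' expression tables. The set holds 12 core proteins, 10 enzymes of chain synthesis, 11 enzymes of chain modification and the 2 extracellular endosulfatases. Each symbol had 1 entry per sample, and every one of these values carried the status OK. 28 of the 35 reached a mean of 1 FPKM (a fragment count corrected for how long the transcript is and how deeply the library was sequenced) over all samples and were tested. The other 7 (GPC2, GPC3, GPC5, NDST3, HS3ST1, HS3ST2 and HS6ST2) did not reach it.

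Heparan sulfate is a long, unbranched sugar chain attached to serines of a core protein. Xylosyltransferases start a short linker on the core protein, the EXT and EXTL enzymes lengthen the chain from alternating glucuronic acid and N-acetylglucosamine, and Golgi enzymes then replace acetyl groups by sulfate, epimerise glucuronic acid and add further sulfates at defined positions. The pattern of sulfates decides which growth factors, morphogens and chemokines a chain holds at the surface of a cell, and the SULF enzymes remove 6-O-sulfates again outside the cell. Fibroblasts are a main source of these proteoglycans in connective tissue.

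Polyadenylated RNA was sequenced from cultured human fibroblast cell lines described as population controls. SUPT4H1 encodes the small subunit of the elongation factor DSIF, which travels with RNA polymerase II. The groups were SUPT4H1 siRNA in line 1, control (non-targeting) siRNA in line 1, SUPT4H1 siRNA in line 2 and control siRNA in line 2, with 2 replicate treatments each. All cells were grown in the same serum-containing medium and transfected by lipofection, so the controls carry the transfection too, and only 2 lines stand for all fibroblasts. The labels give no time between transfection and harvest, and nothing says that replicate treatments came from separate cultures, so each p-value speaks for the scatter among these libraries, part of which may be technical.

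SUPT4H1 itself stood at 1.37 and 1.43 FPKM after SUPT4H1 siRNA in line 1, against 25.61 and 25.59 FPKM after control siRNA, and at 1.69 and 1.74 FPKM after SUPT4H1 siRNA in line 2, against 26.18 and 28.31 FPKM after control siRNA. The knockdown was therefore present in all 4 treated libraries, with 5.46% of the control level left in line 1 and 6.3% in line 2. The exact 2-sided permutation test over the 70 arrangements of 4 against 4 samples gave p = 0.0286, the smallest it can give. Over the 36 arrangements within lines the exact permutation test gave p = 0.0556, also the smallest it can give, so that test cannot pass 0.05 in this design. The gene lies at chr17:56422536-56429599 (hg19) and overlaps the antisense gene BZRAP1-AS1. Summed FPKM per library ran over 288293-305680, and the relative depth recovered from the deposited confidence limits ran over 0.82-1.127, with replicate 1 of control siRNA in line 1 set to 1. All 10 fibroblast markers were above 1 FPKM in the libraries, with a summed level of 9945-12470 FPKM after SUPT4H1 siRNA and 11400-12650 FPKM after control siRNA. FAP was lower, at 56.82-64.19 FPKM after SUPT4H1 siRNA against 69.64-76.43 FPKM after control siRNA. COL5A1 was also lower, at 227.28-238.16 FPKM against 268.38-375.92 FPKM. For the other fibroblast markers the ranges of the siRNAs overlapped. Markers of keratinocytes (1 of 5 above 1 FPKM), endothelial cells (0 of 5) and melanocytes (0 of 4) were low in both groups. The leukocyte list summed to 59.41-78.09 FPKM after SUPT4H1 siRNA against 45.08-51.92 FPKM after control siRNA. This came from CD68 and CD14, while PTPRC, which marks leukocytes in general, was at most 0.18 FPKM after SUPT4H1 siRNA and 0.21 FPKM after control siRNA, and CD3E was listed at 0 in every library. In the smooth muscle list, summing to 24.27-48.62 FPKM after SUPT4H1 siRNA and 23.68-40.49 FPKM after control siRNA, 2 of 5 genes had a mean above 1 FPKM over all libraries (CNN1 and SMTN). CNN1 varied widely, over 0.89-14.15 FPKM after SUPT4H1 siRNA and 0.77-9.11 FPKM after control siRNA. In these bulk samples, fewer cells of a type and less RNA per cell cannot be told apart.

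After SUPT4H1 siRNA, 10 of the 28 tested genes were higher and 7 were lower at an adjusted p under 0.05 in limma on log2(FPKM + 1), with the line as a block. Fold changes below are on that scale unless given as plain FPKM ratios. Over all 11434 genes tested, 26.9% were higher and 15.2% were lower. The heparan sulfate genes stood at 35.7% higher and 25% lower, and their median log2 change was 0.02, against 0.03 over all genes tested. After median-ratio scaling the split over all genes was 2316 higher to 2310 lower, against 3072 to 1737 as deposited, and that of the heparan sulfate genes was 8 to 9. Among the 17 called genes, only SULF1 moved by more than 1 on the log2 scale. The SD of log2 ratios over genes was 0.088-0.094 between replicates, 0.194-0.234 between SUPT4H1 siRNA and control siRNA within a line, and 0.417-0.493 between the lines. Without the line in the fit, 2 of the 17 calls remained (GPC4 and HS6ST1) and the other 15 had adjusted p-values of 0.0862 to 0.826. Over all genes the same fit called 407 higher and 203 lower.

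**Figure D1:**
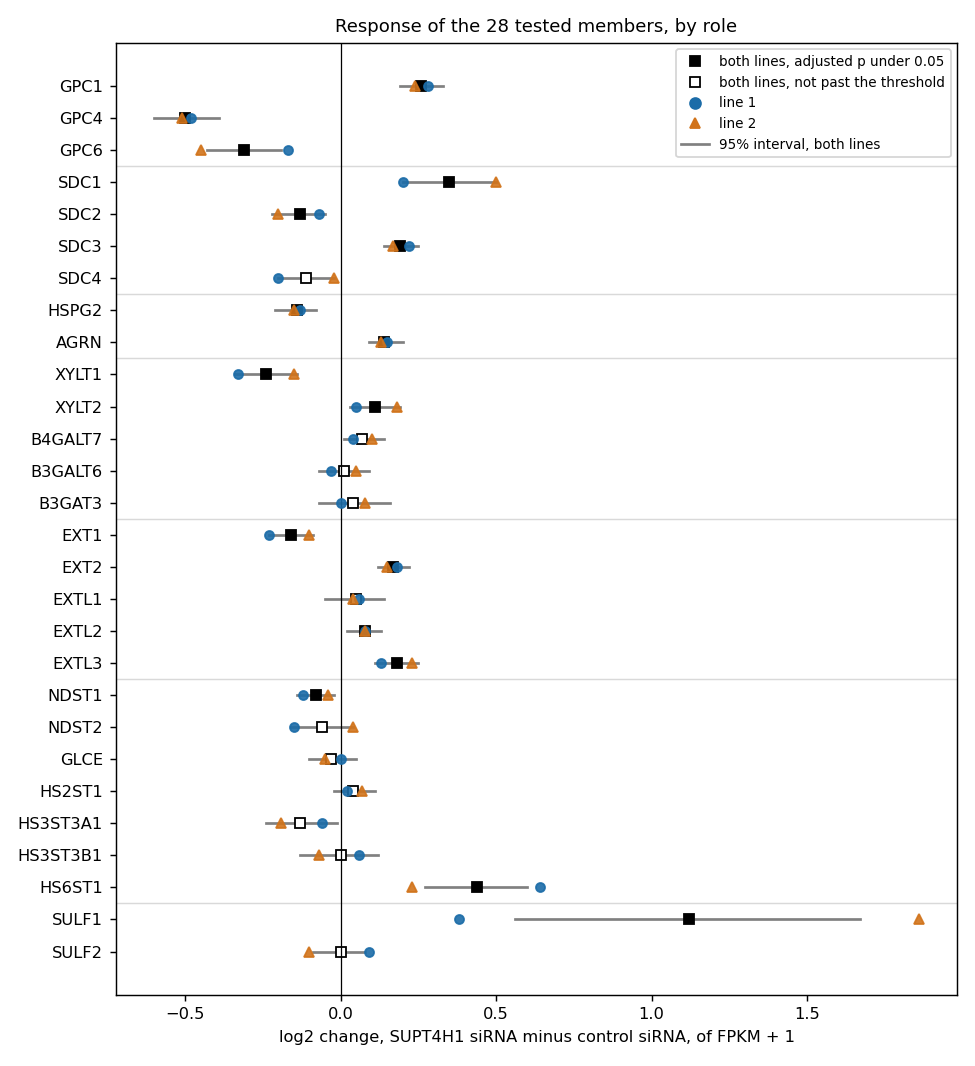
Response of the 28 tested heparan sulfate genes, as the log2 change of FPKM + 1 (SUPT4H1 siRNA minus control siRNA), for both lines together (squares, with 95% intervals as lines, filled where called), line 1 (circles) and line 2 (triangles). Most genes lie within 0.5 of 0 in both lines, HS6ST1 was higher by 0.64 in line 1 and 0.23 in line 2, and SULF1 was higher by 0.38 in line 1 and 1.86 in line 2.

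The core proteins moved in both directions, 4 higher (GPC1, SDC1, SDC3 and AGRN), 4 lower (GPC4, GPC6, SDC2 and HSPG2) and 1 not called (SDC4) of the 9 tested. The shares were 44.4% higher and 44.4% lower, against 26.9% and 15.2% over all genes tested. The median log2 change of the core proteins was -0.11 over both lines, -0.07 in line 1 and -0.02 in line 2, against 0.03 over all genes in the fit of both lines. The direction of that median was not stable, since it was 0.016 among core proteins with a mean of at least 5 FPKM, which leaves GPC4 out. The summed FPKM of all 12 core proteins stayed close, at a mean of 331.1 FPKM after SUPT4H1 siRNA against 329.6 FPKM after control siRNA in line 1, and 396.1 FPKM after SUPT4H1 siRNA against 387.6 FPKM after control siRNA in line 2.

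Among the glypicans, which are held to the outer membrane by a lipid anchor, GPC1 was the most abundant and was higher after SUPT4H1 siRNA. It stood at 64.56 and 64.96 FPKM after SUPT4H1 siRNA in line 1, against 51.42 and 55.19 FPKM after control siRNA, and at 89.76 and 92.36 FPKM after SUPT4H1 siRNA in line 2, against 74.89 and 78.82 FPKM after control siRNA. Within each line both treated libraries lay above both controls, but the groups of 4 overlapped, since line 2 was higher than line 1 under both siRNAs. The log2 change was 0.26 (SE 0.03, adjusted p = 0.000199 in limma, and 0.504 without the line in the fit). The FPKM ratio was 1.21 in line 1 and 1.18 in line 2. GPC1 lies at chr2:241375115-241407495 (hg19), where MIR149 and PP14571 also lie.

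GPC4 moved the other way, in both lines by the same share. It stood at 2.47 and 2.35 FPKM after SUPT4H1 siRNA in line 1, against 3.63 and 3.92 FPKM after control siRNA, and at 2.70 and 3.13 FPKM after SUPT4H1 siRNA in line 2, against 4.77 and 4.33 FPKM after control siRNA. All 4 treated libraries lay below all 4 controls. The log2 change was -0.50 (SE 0.05, 95% interval -0.60 to -0.39, adjusted p = 7.17e-05 in limma, and 0.0244 without the line in the fit). The FPKM ratio was 0.64 in each line, the lowest among the called core proteins. GPC4 (chrX:132435064-132549205, hg19) had a low level and was not tested when a mean of 5 FPKM was required.

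GPC6, whose gene spans 1181.2 kb at chr13:93879078-95060273 (hg19), was lower in both lines and by more in line 2. It stood at 15.02 and 15.08 FPKM after SUPT4H1 siRNA in line 1, against 16.92 and 17.22 FPKM after control siRNA, and at 11.01 and 10.73 FPKM after SUPT4H1 siRNA in line 2, against 14.84 and 15.53 FPKM after control siRNA. The log2 change was -0.31 (SE 0.05, adjusted p = 0.00153 in limma, and 0.198 without the line in the fit). It was -0.17 in line 1 and -0.45 in line 2, and the difference between the lines was itself called (-0.28, SE 0.05, adjusted p = 0.00666 in limma). The antisense genes GPC6-AS1 and GPC6-AS2 overlap it, and no source used here gives the strand setting of the quantification, so their reads cannot be told apart from those of GPC6. Of the untested glypicans, GPC3 was found in line 1, at 0.72 and 0.79 FPKM after SUPT4H1 siRNA against 1.28 and 1.04 FPKM after control siRNA, and was at most 0.0098 FPKM in line 2. GPC2 stood at 0.13 to 0.27 FPKM after SUPT4H1 siRNA and 0.30 to 0.36 FPKM after control siRNA, and GPC5 was listed at 0 in every library.

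**Figure D2:**
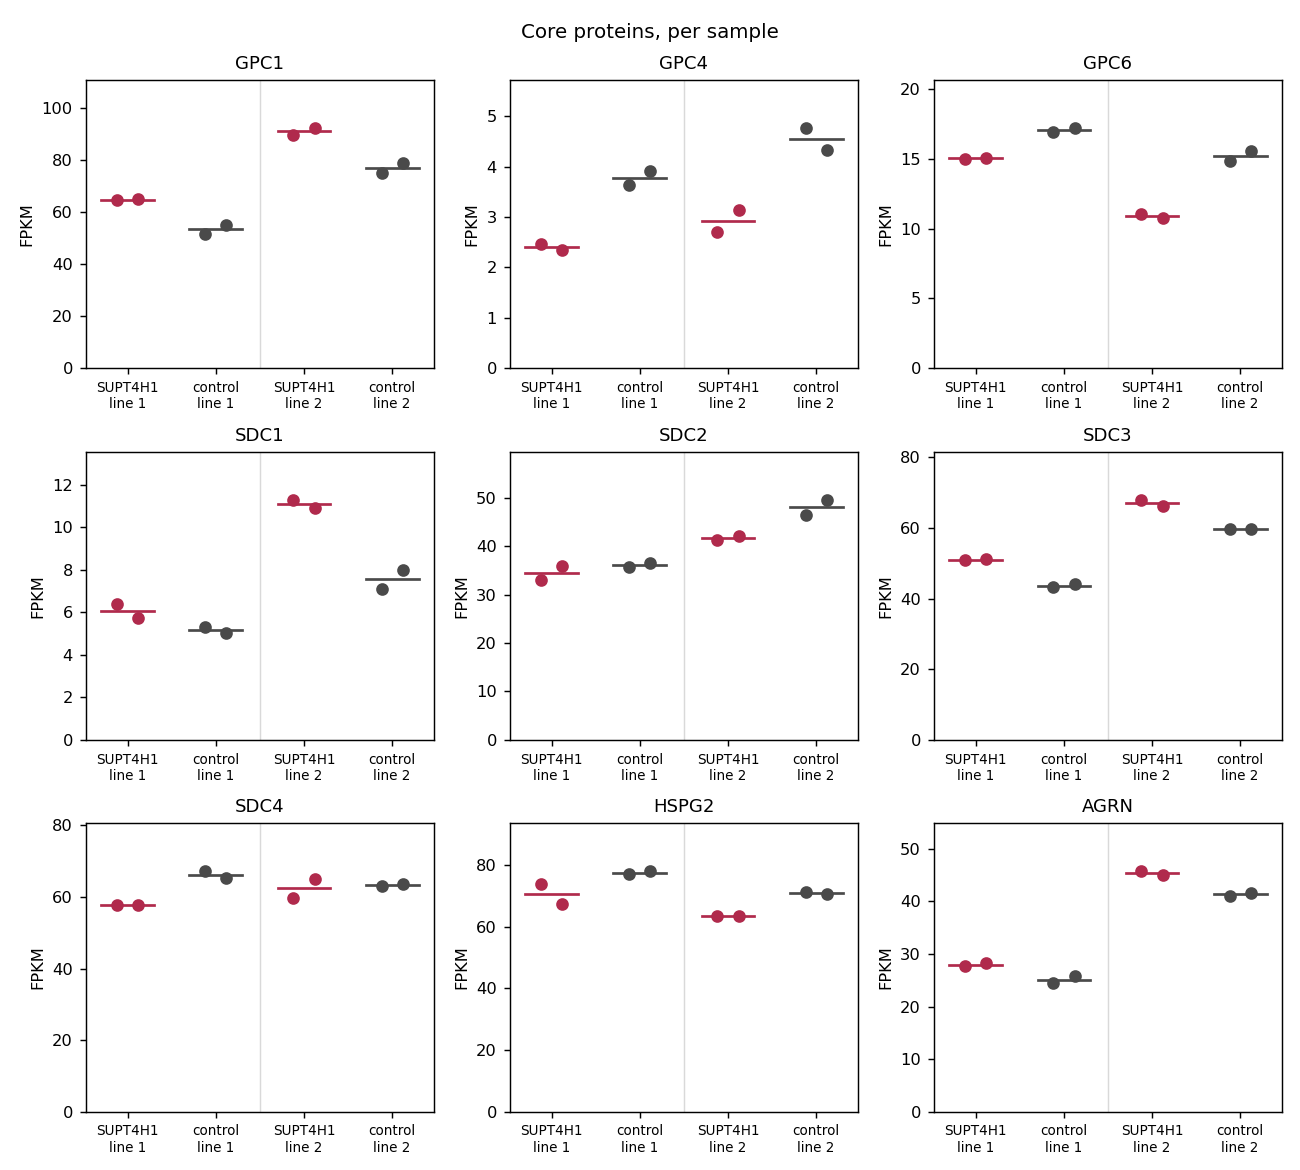
FPKM of the core proteins in each of the 8 libraries (points), by siRNA and line, with lines at the mean of the 2 replicates; the FPKM axis differs by gene. GPC4 lay lower in all 4 SUPT4H1 siRNA libraries than in any control library, and GPC1, SDC1, SDC3 and AGRN lay higher within each line.

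The syndecans, which span the membrane, were 2 higher (50%), 1 lower (25%) and 1 not called, against 26.9% higher and 15.2% lower over all genes tested. SDC1, the syndecan best known from epithelia and plasma cells, stood at 6.40 and 5.73 FPKM after SUPT4H1 siRNA in line 1, against 5.29 and 5.02 FPKM after control siRNA, and at 11.30 and 10.89 FPKM after SUPT4H1 siRNA in line 2, against 7.12 and 8.0 FPKM after control siRNA. Its log2 change was 0.35 (SE 0.07, adjusted p = 0.00283 in limma, and 0.476 without the line in the fit). The change was 0.20 in line 1 and 0.50 in line 2, with an adjusted p of 0.0551 for the difference between the lines. SDC3 was more abundant and more even between lines, at 50.94 and 51.19 FPKM after SUPT4H1 siRNA in line 1, against 43.40 and 44.02 FPKM after control siRNA, and at 68.03 and 66.12 FPKM after SUPT4H1 siRNA in line 2, against 59.57 and 59.61 FPKM after control siRNA. Its log2 change was 0.19 (SE 0.02, adjusted p = 0.000235 in limma, and 0.551 without the line).

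SDC2, a syndecan of mesenchymal cells, was lower by a small margin, with a log2 change of -0.13 (SE 0.04, adjusted p = 0.021 in limma, and 0.641 without the line). The change was -0.07 in line 1 (adjusted p = 0.267) and -0.20 in line 2 (0.00416), and the difference between the lines was not called (0.211). Its level was 33.10 to 42.06 FPKM after SUPT4H1 siRNA and 35.67 to 49.62 FPKM after control siRNA, and this call was lost on leaving out any of 4 single libraries: adjusted p was 0.0577 without SUPT4H1 siRNA line 1 replicate 1, 0.0646 without SUPT4H1 siRNA line 2 replicate 1, 0.0586 without SUPT4H1 siRNA line 2 replicate 2 and 0.0538 without control siRNA line 2 replicate 2. SDC4, found at focal adhesions, was not called, with a log2 change of -0.11 (SE 0.04, adjusted p = 0.0566 in limma). Its change was -0.20 in line 1 and -0.02 in line 2, and the difference between the lines was not called (adjusted p = 0.0808). Without SUPT4H1 siRNA line 2 replicate 2, SDC4 was called lower (adjusted p = 0.00754).

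The 2 secreted core proteins, both of basement membranes, changed in opposite directions. HSPG2, which encodes perlecan, stood at 73.94 and 67.32 FPKM after SUPT4H1 siRNA in line 1, against 77.17 and 77.91 FPKM after control siRNA, and at 63.38 and 63.60 FPKM after SUPT4H1 siRNA in line 2, against 71.11 and 70.44 FPKM after control siRNA. Its log2 change was -0.14 (SE 0.03, adjusted p = 0.00468 in limma, and 0.256 without the line), and its locus overlaps LDLRAD2. AGRN, which encodes agrin, the organiser of the neuromuscular junction, stood at 27.69 and 28.19 FPKM after SUPT4H1 siRNA in line 1, against 24.43 and 25.79 FPKM after control siRNA, and at 45.68 and 45.09 FPKM after SUPT4H1 siRNA in line 2, against 41.03 and 41.56 FPKM after control siRNA. Its log2 change was 0.14 (SE 0.02, adjusted p = 0.00183 in limma, and 0.826 without the line).

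Of the 10 chain synthesis enzymes, 4 were higher (XYLT2, EXT2, EXTL2 and EXTL3), 2 were lower (XYLT1 and EXT1) and 4 were not called, with a median log2 change of 0.06. The shares were 40% higher and 20% lower, against 26.9% and 15.2% over all genes tested. The xylosyltransferase pair, which attaches the first sugar of the linker, was split. XYLT1 stood at 4.13 and 3.78 FPKM after SUPT4H1 siRNA in line 1, against 5.33 and 5.13 FPKM after control siRNA, and at 3.47 and 3.46 FPKM after SUPT4H1 siRNA in line 2, against 3.88 and 4.05 FPKM after control siRNA. It was lower, with a log2 change of -0.24 (SE 0.05, adjusted p = 0.00263 in limma, and 0.217 without the line). XYLT2 was higher by 0.11 (SE 0.04, adjusted p = 0.0312 in limma, and 0.304 without the line), at 9.94 to 11.53 FPKM after SUPT4H1 siRNA and 9.60 to 10.34 FPKM after control siRNA, a call that was lost on leaving out any 1 library other than replicate 2 of SUPT4H1 siRNA or of control siRNA in line 1 (adjusted p of 0.0561 to 0.0886). In line 1 alone XYLT2 was not called (0.05, adjusted p = 0.416 in limma), and in line 2 it was higher by 0.18 (0.00476). The 3 enzymes that complete the linker were not called: B4GALT7, which adds the first galactose (log2 change 0.07, adjusted p = 0.0623), B3GALT6, which adds the next (0.01, adjusted p = 0.861), and the glucuronosyltransferase B3GAT3 (0.04, adjusted p = 0.551). All 3 lay between 10.3 and 13.5 FPKM in every library.

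The chain polymerase is a complex of EXT1 and EXT2, whose loss causes multiple osteochondromas, and its subunits also moved apart. EXT1 stood at 31.21 and 30.80 FPKM after SUPT4H1 siRNA in line 1, against 35.75 and 37.26 FPKM after control siRNA, and at 46.20 and 46.09 FPKM after SUPT4H1 siRNA in line 2, against 49.10 and 49.76 FPKM after control siRNA. EXT2 stood at 49.40 and 49.96 FPKM after SUPT4H1 siRNA in line 1, against 43.57 and 43.83 FPKM after control siRNA, and at 52.34 and 53.04 FPKM after SUPT4H1 siRNA in line 2, against 46.35 and 48.11 FPKM after control siRNA. All 4 treated libraries lay above all 4 controls for EXT2, while EXT1 lay below its control within each line. The log2 change of EXT1 was -0.16 (SE 0.03, adjusted p = 0.0031 in limma, and 0.7 without the line). That of EXT2 was 0.17 (SE 0.02, adjusted p = 0.000469 in limma, and 0.0862 without the line).

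EXTL3, which adds the sugar that commits the linker to heparan sulfate, stood at 11.57 and 11.89 FPKM after SUPT4H1 siRNA in line 1, against 10.64 and 10.64 FPKM after control siRNA, and at 15.93 and 15.51 FPKM after SUPT4H1 siRNA in line 2, against 13.08 and 13.42 FPKM after control siRNA. It was higher by 0.18 on the log2 scale (SE 0.03, adjusted p = 0.00136 in limma, and 0.503 without the line). EXTL2, a related transferase that can end a chain early, was higher by 0.08 (SE 0.02, adjusted p = 0.0304 in limma, and 0.354 without the line), and leaving out any 1 library other than replicate 1 of control siRNA in either line lost this call (adjusted p of 0.0566 to 0.0847). By line, EXTL2 was not called in line 1 (0.08, adjusted p = 0.125 in limma) or in line 2 (0.08, 0.0857). EXTL1 lay at 0.80 to 1.93 FPKM across all libraries and was not called (0.05, adjusted p = 0.393).

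Of the 7 tested chain modification enzymes, HS6ST1 was higher, NDST1 was lower and 5 were not called, with a median log2 change of -0.03. The shares were 14.3% higher and 14.3% lower, against 26.9% and 15.2% over all genes tested. NDST1, the main N-deacetylase and N-sulfotransferase, which opens the way for the later sulfations, was lower, with a log2 change of -0.08 (SE 0.02, adjusted p = 0.031 in limma, and 0.794 without the line). NDST1 changed by -0.12 in line 1 (adjusted p = 0.0111 in limma) and was not called in line 2 (-0.04, 0.249). Its level was 45.16 to 59.15 FPKM after SUPT4H1 siRNA and 48.92 to 60.90 FPKM after control siRNA, and leaving out any 1 library other than replicate 1 of SUPT4H1 siRNA or of control siRNA in line 2 lost the call (adjusted p of 0.0517 to 0.0949). NDST2 was not called (-0.06, adjusted p = 0.306). The epimerase GLCE (-0.03, adjusted p = 0.569) and the 2-O-sulfotransferase HS2ST1 (0.04, adjusted p = 0.241) were not called either. GLCE overlaps the small RNA gene MIR548H4. The 3-O-sulfotransferases HS3ST3A1 (-0.13, adjusted p = 0.0686) and HS3ST3B1 (-0.00, adjusted p = 0.967) were not called, and their values are taken as uncertain: the 2 genes are known for a nearly identical catalytic domain, and how reads common to both were assigned was not tested. HS3ST3A1 was called lower without SUPT4H1 siRNA line 1 replicate 1 (adjusted p = 0.0386). HS3ST1 and HS3ST2 were listed at 0 in every library, NDST3 was at most 0.0045 FPKM and HS6ST2 at most 0.0059 FPKM.

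Of the enzymes that act on 6-O-sulfates, SULF1 and HS6ST1 were higher and SULF2 was not called. By the size of the log2 change over both lines, SULF1 (1.12) came first of the 28 tested genes, GPC4 (-0.50) next and HS6ST1 (0.44) after it. HS6ST1, which adds sulfate at that position, stood at 14.52 and 14.72 FPKM after SUPT4H1 siRNA in line 1, against 9.16 and 8.84 FPKM after control siRNA, and at 13.22 and 13.07 FPKM after SUPT4H1 siRNA in line 2, against 11 and 11.13 FPKM after control siRNA. All 4 treated libraries lay above all 4 controls, and the controls of line 1 were the lowest. The log2 change was 0.44 (SE 0.07, 95% interval 0.27 to 0.60, adjusted p = 0.00141 in limma, and 0.0272 without the line). The FPKM ratio was 1.62 in line 1 and 1.19 in line 2, and the difference between the lines was called (line 2 minus line 1 -0.41, SE 0.05, adjusted p = 0.000721 in limma). HS6ST1 lies at chr2:129023054-129076171 (hg19).

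SULF1, which removes 6-O-sulfates from finished chains, responded in the same direction as HS6ST1 but with the opposite ranking of the lines. It stood at 12.89 and 12.95 FPKM after SUPT4H1 siRNA in line 1, against 10.12 and 9.35 FPKM after control siRNA, and at 43.64 and 45.89 FPKM after SUPT4H1 siRNA in line 2, against 11.24 and 12.03 FPKM after control siRNA. The controls of the lines were close, and the treated libraries of line 2 stood far above all others. The log2 change was 0.38 in line 1 (adjusted p = 0.000253 in limma) and 1.86 in line 2 (adjusted p = 1.08e-08), for FPKM ratios of 1.33 and 3.85. The difference between the lines was 1.48 (line 2 minus line 1, SE 0.06, 95% interval 1.34 to 1.63, adjusted p = 4.14e-06 in limma). Averaged over the lines the change was 1.12 (SE 0.25, adjusted p = 0.0061 in limma, and 0.2 without the line), a mean that neither line showed. By the size of its increase, SULF1 ranked 3 of 11434 genes in line 2 and 261 in line 1, and by the size of the difference between the lines it ranked 7. SULF1 was singled out for the size of its response with earlier results of these data known. Its ranks and p-values therefore describe that choice and do not test it. SULF1 lies at chr8:70378859-70573147 (hg19). The deposited 95% limits of its FPKM lay within 3.4% to 5.1% of the value.

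SULF2, the other endosulfatase, stood at 30.41 and 31.44 FPKM after SUPT4H1 siRNA in line 1, against 29.41 and 28.66 FPKM after control siRNA, and at 21.84 and 22.11 FPKM after SUPT4H1 siRNA in line 2, against 23.39 and 23.73 FPKM after control siRNA. Both treated libraries lay above the controls in line 1 and below them in line 2; it was the 1 member ordered in opposite directions in the lines, as were 6.78% of all genes tested. Over both lines it was not called (95% interval of the log2 change -0.09 to 0.08, adjusted p = 0.943 in limma). The difference between the lines was -0.18 (SE 0.04, adjusted p = 0.0279), and it was lost on leaving out any 1 library other than SUPT4H1 siRNA line 1 replicate 1 or control siRNA line 2 replicate 1 (adjusted p of 0.0568 to 0.109). The summed endosulfatase level was 43.30 and 44.39 FPKM after SUPT4H1 siRNA in line 1, against 39.53 and 38.01 FPKM after control siRNA, and 65.49 and 68.00 FPKM after SUPT4H1 siRNA in line 2, against 34.63 and 35.76 FPKM after control siRNA. SULF1 made up 29.8% and 29.2% of that sum after SUPT4H1 siRNA in line 1, against 25.6% and 24.6% after control siRNA, and 66.6% and 67.5% after SUPT4H1 siRNA in line 2, against 32.5% and 33.6% after control siRNA. HS6ST1 per unit of summed endosulfatase was 0.335 and 0.332 after SUPT4H1 siRNA in line 1, against 0.232 and 0.233 after control siRNA, and 0.202 and 0.192 after SUPT4H1 siRNA in line 2, against 0.318 and 0.311 after control siRNA. This ratio was higher after SUPT4H1 siRNA in line 1 and lower in line 2; the difference was not tested.

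**Figure D3:**
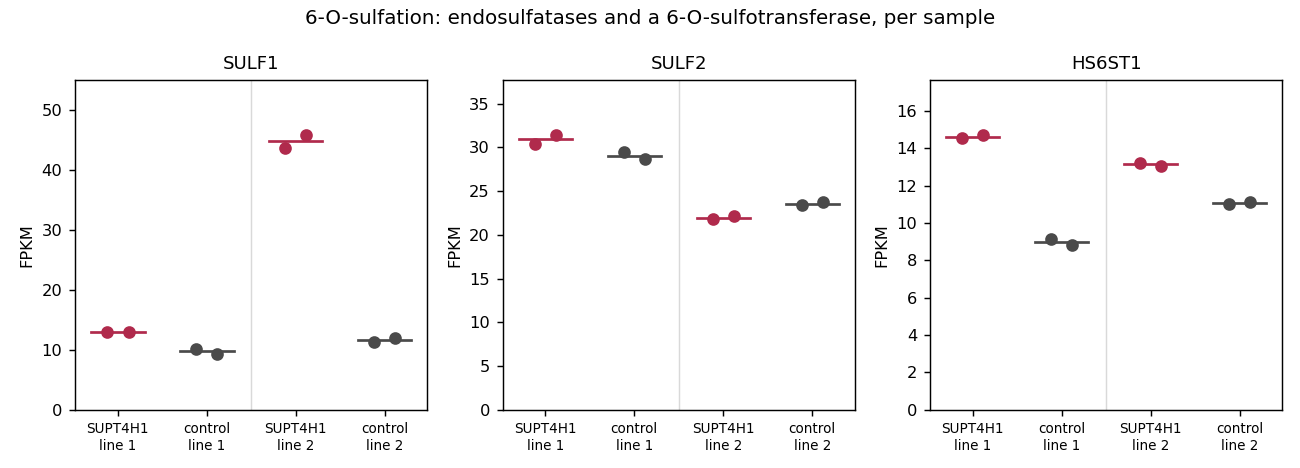
FPKM of SULF1, SULF2 and HS6ST1 in each of the 8 libraries (points), by siRNA and line, with lines at the mean of the 2 replicates. SULF1 stood at 43.64 and 45.89 FPKM in line 2 after SUPT4H1 siRNA and at 9.35 to 12.95 FPKM in all other libraries.

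Across the set, 4 of the 28 tested genes had a response that differed between the lines (GPC6, HS6ST1, SULF1 and SULF2), against 9.85% of all genes tested. Adjusted p-values of the line difference over the alternative settings ran over 9.3e-07 to 0.00219 for SULF1, 0.000394 to 0.00589 for HS6ST1, 0.0027 to 0.0318 for GPC6 and 0.0164 to 0.109 for SULF2. Leaving out 1 library also brought the line difference past the threshold for SDC1 (adjusted p = 0.039 without SUPT4H1 siRNA line 1 replicate 1 and 0.0317 without control siRNA line 2 replicate 2), for SDC4 (0.0193 without SUPT4H1 siRNA line 2 replicate 1) and for NDST2 (0.0492 without control siRNA line 2 replicate 1).

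The promoter of each gene was read from RefSeq on GRCh38.p14, as the 250 bases before the start, for 29 of the 35 genes. Those of HS6ST1 and GPC1 are shown as genes that were higher, and those of GPC4 and GPC6 as genes that were lower, all in lower case with the GC box GGGCGG (or CCGCCC on the other strand, overlaps allowed) in capitals. They lie at chr2:128318869-128319118 on the minus strand for HS6ST1, chr2:240435413-240435662 on the plus strand for GPC1, chrX:133415490-133415739 on the minus strand for GPC4 and chr13:93226557-93226806 on the plus strand for GPC6.
HS6ST1: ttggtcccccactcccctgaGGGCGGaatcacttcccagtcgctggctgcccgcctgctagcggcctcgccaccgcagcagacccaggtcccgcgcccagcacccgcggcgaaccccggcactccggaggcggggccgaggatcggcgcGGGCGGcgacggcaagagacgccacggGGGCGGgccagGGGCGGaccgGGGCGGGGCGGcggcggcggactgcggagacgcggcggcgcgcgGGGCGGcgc
GPC1: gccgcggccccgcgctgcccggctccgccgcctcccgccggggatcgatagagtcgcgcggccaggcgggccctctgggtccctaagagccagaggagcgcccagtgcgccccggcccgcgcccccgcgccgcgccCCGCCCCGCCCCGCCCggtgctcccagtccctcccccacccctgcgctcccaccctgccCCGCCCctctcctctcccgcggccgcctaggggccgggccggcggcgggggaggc
GPC4: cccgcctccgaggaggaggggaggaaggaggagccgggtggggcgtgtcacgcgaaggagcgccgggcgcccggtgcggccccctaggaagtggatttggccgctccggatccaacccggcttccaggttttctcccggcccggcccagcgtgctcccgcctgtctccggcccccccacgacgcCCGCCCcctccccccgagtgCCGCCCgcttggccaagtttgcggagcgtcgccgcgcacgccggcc
GPC6: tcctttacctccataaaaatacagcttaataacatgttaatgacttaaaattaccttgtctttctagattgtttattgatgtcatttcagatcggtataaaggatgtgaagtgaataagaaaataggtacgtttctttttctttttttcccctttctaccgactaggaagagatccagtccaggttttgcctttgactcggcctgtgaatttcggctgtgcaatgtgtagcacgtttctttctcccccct
HS6ST1 held 7 GC boxes, GPC1 held 4, GPC4 held 2 and GPC6 held 0, and their base composition was 80.4%, 84.0%, 76.0% and 37.6% G or C in that order, against a median of 58.0% over all entries. These genes were shown as examples and were not picked by a rule. Box counts of the other called genes are not given, so no relation to the direction of response can be read from them. GGGCGG was found in 26 of the 29 genes, counting a gene if any of its entries held it (37 entries in all). Of the 35116 single promoter entries of the table, 42.6% held it. A gene with several entries could match by any of them, so shares by gene and by entry are not alike. By gene, GGGCGG was found in 7 of 7 matched genes that were higher and in 4 of 5 that were lower. Counted the same way, TATAAA occurred in 3 of the 29 genes (EXT2, GPC5 and GPC6) and in 10.7% of single entries. CACGTG occurred in 4 of the 29 genes and in 6.34% of single entries, and TGANTCA in 1 of the 29 (NDST1) and in 6.57%. Promoters of the genes GPC3, SDC2, AGRN, EXT1, EXTL3 and SULF1 were not used here.

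Genomic span was compared with direction, a property that played no part in choosing the genes. Among the tested genes, 12 span 100 kb or more in hg19, of which 2 were higher (SULF1 and EXT2) and 6 were lower, with a median log2 change of -0.13. The other 16 span less than 100 kb, of which 8 were higher and 1 was lower (NDST1), with a median of 0.08. Of the 6 long genes that were lower, GPC4 (114.1 kb), HSPG2 (115.1 kb) and SDC2 (118.2 kb) lie just above the limit. The split of the lower genes therefore depends on where the limit is set. Over all genes with 1 entry, 22.25% of the 1861 long genes were higher and 20.85% lower, against 27.71% higher and 14.13% lower of the 9444 shorter genes. Spearman's rho between span and log2 change was -0.34 across the 28 genes and -0.05 across the 11305 genes. Across the 28 genes it was -0.18 for the change in line 1 and -0.40 for that in line 2, and without SULF1 it was -0.44 over both lines. Genes are not independent replicates and share the same 8 libraries, and the 100 kb limit was chosen after the values were seen, so no test was run.

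**Figure D4:**
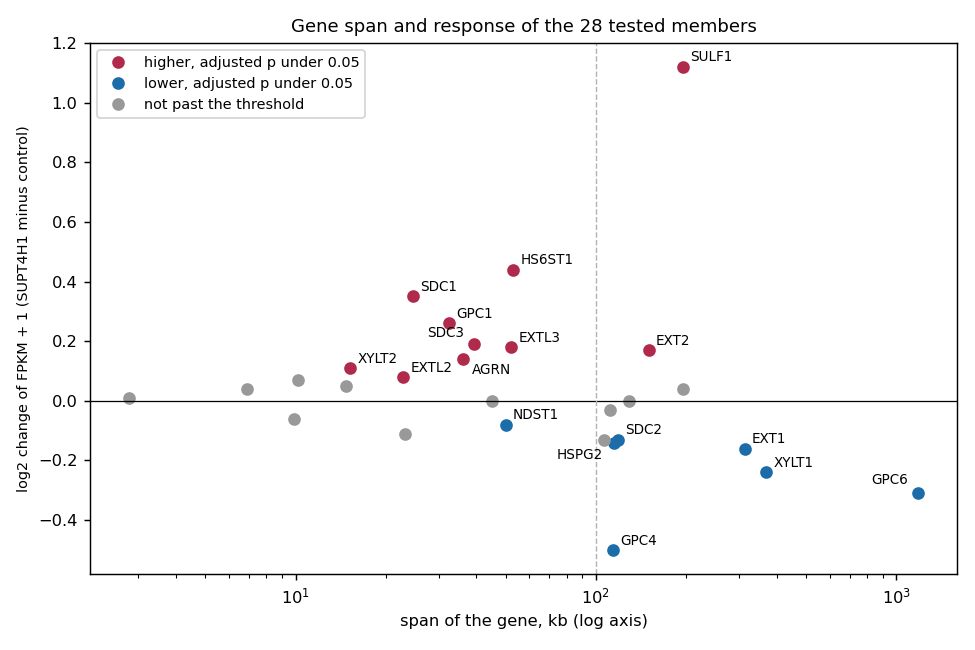
Genomic span in hg19 (kb, log axis) against the log2 change after SUPT4H1 siRNA for the tested heparan sulfate genes. Of genes of 100 kb or more, 2 were called higher and 6 lower, and SULF1 and EXT2 are the higher ones. GPC4, HSPG2 and SDC2, which were lower, lie just above the 100 kb limit.

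Genes that act with heparan sulfate but are not members were taken from lists by role, and their counts stand against the same 26.9% higher and 15.2% lower over all genes tested. The lists were chosen with earlier results of these data known, so their shares are descriptions and no list was tested as a set. Of 8 other proteins that carry heparan sulfate at least part of the time, 6 were tested, of which 5 were lower (83.3%) and 1 was higher (16.7%), with a median log2 change of -0.41. The largest decrease was that of SPOCK1, the matrix proteoglycan testican-1, at 55.10 and 58.02 FPKM after SUPT4H1 siRNA in line 1, against 100.94 and 97.57 FPKM after control siRNA, and at 50.59 and 50.39 FPKM after SUPT4H1 siRNA in line 2, against 93.00 and 91.61 FPKM after control siRNA. All 4 treated libraries lay below all 4 controls, with a log2 change of -0.83 (SE 0.03, adjusted p = 3.79e-07 in limma, and 0.00105 without the line). The gene that was higher was SRGN, the granule proteoglycan serglycin, at 2.47 ± 0.23 FPKM after SUPT4H1 siRNA and 1.49 ± 0.18 FPKM after control siRNA (SD, n = 4 each; log2 change 0.48, adjusted p = 0.000477 in limma, and 0.0128 without the line). The other 4, named after their values were seen, were betaglycan (TGFBR3, -0.50, adjusted p = 2.05e-05, and 0.065 without the line), CD44 (-0.45, adjusted p = 8.35e-05), NRP1 (-0.37, adjusted p = 5.6e-05) and COL18A1 (-0.14, adjusted p = 0.0218, and 0.231 without the line). The decrease was larger in line 2 by a called difference for TGFBR3 (line 2 minus line 1 -0.19, adjusted p = 0.0205), CD44 (-0.23, adjusted p = 0.00436) and COL18A1 (-0.20, adjusted p = 0.0284), and COL18A1 was not called in line 1 alone (-0.04, adjusted p = 0.353). The line difference of CD44 held in every setting (adjusted p of 0.00208 to 0.027). That of TGFBR3 was lost without control siRNA line 1 replicate 1 (adjusted p = 0.0861) or line 2 replicate 1 (0.0541), without SUPT4H1 siRNA line 1 replicate 1 (0.0577) or replicate 2 (0.0538), and without SUPT4H1 siRNA line 2 replicate 2 (0.0794). That of COL18A1 was lost without control siRNA line 1 replicate 1 (0.107) or line 2 replicate 2 (0.0734), without SUPT4H1 siRNA line 1 replicate 1 (0.0703) or replicate 2 (0.0859), and without SUPT4H1 siRNA line 2 replicate 2 (0.1). COL18A1 was also not called on leaving out any 1 of the 4 line 2 libraries (adjusted p of 0.0594 to 0.0657).

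Of 22 ligands and receptors that bind heparan sulfate, 14 were tested, of which 4 were higher (28.6%), 7 were lower (50%) and 3 were not called. FGF5, not called over both lines and named after its values were seen, changed by -0.16 in line 1 (adjusted p = 0.00976 in limma). In line 2 it changed by 0.05 (0.342). FGF1, an acidic fibroblast growth factor, had the largest increase, with a log2 change of 0.57 (adjusted p = 0.000109 in limma, and 0.616 without the line). Its level was 1.78 and 1.88 FPKM after SUPT4H1 siRNA in line 1, against 1.15 and 1.04 FPKM after control siRNA, and 7.28 and 7.53 FPKM after SUPT4H1 siRNA in line 2, against 4.03 and 4.23 FPKM after control siRNA. The chemokine CXCL12 had the largest decrease, with a log2 change of -0.70 (adjusted p = 2.96e-06 in limma, and 0.784 without the line). Its level was 648.18 and 689.98 FPKM after SUPT4H1 siRNA in line 1, against 1026.02 and 1040.88 FPKM after control siRNA, and 90.82 and 87.38 FPKM after SUPT4H1 siRNA in line 2, against 151.43 and 152.52 FPKM after control siRNA. The angiogenic factor VEGFA (-0.67, adjusted p = 1.91e-05) and FGF7 (-0.63, adjusted p = 8.52e-06), a factor that acts on epithelium, were also lower and were named after their values were seen. The difference between the lines was called for VEGFA (line 2 minus line 1 -0.26, adjusted p = 0.00855). For FGF1 it was 0.28 (adjusted p = 0.042) and was lost on leaving out any 1 of the 8 libraries (adjusted p of 0.0565 to 0.134).

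**Figure D5:**
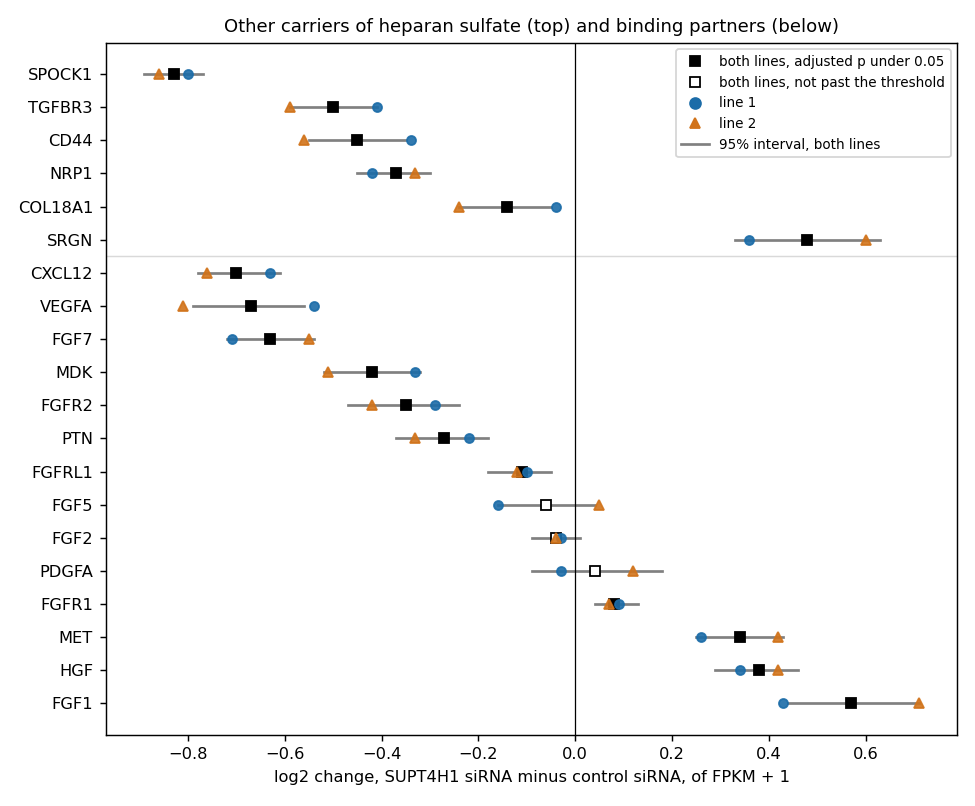
Log2 change of FPKM + 1 after SUPT4H1 siRNA for the tested other carriers of heparan sulfate (top) and its ligands and receptors (below), for both lines together (squares, with 95% intervals as lines, filled where called), line 1 (circles) and line 2 (triangles). Of the carriers, 5 lie below 0 and SRGN lies above, and the binding partners run over -0.70 for CXCL12 to 0.57 for FGF1.

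Of 14 genes that supply activated sugars and sulfate, 3 were higher (21.4%), 2 lower (14.3%) and 9 not called, shares close to those over all genes. PAPSS2, which makes the sulfate donor PAPS, was higher by 0.26 over both lines (adjusted p = 0.0109 in limma, and 0.82 without the line). Its change was 0.43 in line 2 (adjusted p = 3.82e-05) and 0.09 in line 1, where it was not called (0.147), and the difference between the lines was called (0.34, adjusted p = 0.00672). The nucleotide sugar transporter SLC35D2 was lower, with a log2 change of -0.12 (adjusted p = 0.0159, and 0.716 without the line). SLC35D2 missed the threshold without control siRNA line 1 replicate 1 (adjusted p = 0.0506) and without SUPT4H1 siRNA line 2 replicate 2 (0.0509). Of 7 further enzymes acting on the chain or its linker, both tested ones were lower, the larger change being that of the xylose kinase FAM20B (-0.19, adjusted p = 0.000643, and 0.419 without the line). Of 10 lysosomal and extracellular enzymes that break the chain down, 7 were tested, 2 were higher (28.6%), 1 was lower (14.3%) and 4 were not called, again close to the shares over all genes. Not called did not mean unchanged in each line. NAGLU, named after its values were seen, changed by 0.10 in line 1 (adjusted p = 0.0366 in limma) and -0.28 in line 2 (7.63e-05). The iduronate sulfatase IDS was higher by 0.44, at 46.3 ± 1.39 FPKM after SUPT4H1 siRNA and 33.8 ± 0.293 FPKM after control siRNA (SD, n = 4 each; adjusted p = 6.81e-06 in limma, and 0.00139 without the line). The glucuronidase GUSB was lower, with a log2 change of -0.09 (adjusted p = 0.0479, and 0.894 without the line; -0.02 in line 1 and -0.15 in line 2), a call that was lost on leaving out any 1 library other than SUPT4H1 siRNA line 1 replicate 2 (adjusted p of 0.0506 to 0.136). Of 16 enzymes that make the related chondroitin and dermatan sulfate chains, 13 were tested, 4 were higher (30.8%), 4 lower (30.8%) and 5 not called. DSEL and CHST15, not called over both lines, were named after their values were seen. DSEL changed by -0.09 in line 1 (adjusted p = 0.095 in limma) and 0.32 in line 2 (8.43e-05). CHST15 changed by -0.31 in line 1 (0.00463) and 0.23 in line 2 (0.0155). The polymerising factor CHPF was higher by 0.46 (adjusted p = 0.000269 in limma, and 0.056 without the line), with 0.31 in line 1, 0.62 in line 2 and a called difference between them (0.31, adjusted p = 0.00287). The transferase CSGALNACT2 was lower, with a log2 change of -0.24 (adjusted p = 0.000557, and 0.0454 without the line).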

How the data were processed

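FPKM values per gene were deposited by the authors in 1 table per sample, with confidence limits and a status, on hg19 per the submitters' processing notes. No source used here gives the aligner, quantification tool, annotation or strand setting. Each table had 27032 entries. From these, 2205 entries of small RNA symbols were left out (a choice made after seeing the data), and entries of 1 symbol were summed, which left 23228 symbols, of which 19928 were found in the reference names. FPKM is relative to the library, so a change is relative to all RNA sequenced. A mean of 1 FPKM and status OK in every sample left 11434 genes. limma 3.58.1 in R 4.3.3 tested log2(FPKM + 1), which understates changes of low genes, with a mean-variance trend, line as block, 2-sided, Benjamini-Hochberg adjustment over all genes tested and a threshold of 0.05. Line differences came from the 4 group means. The series' stated design groups the 4 samples of each siRNA without the line, and its results stand beside the calls they change. The script was tested on simulated data. Tables and plots were made with Python 3.11.15, pandas 2.3.3, numpy 2.4.6 and matplotlib 3.10.9. The line was taken as a block because samples of 1 line are the same cell line and deviated together (r 0.883 to 0.9). The replicate numbers within a line did not pair the samples. Deposited 95% limits had median half-widths of 14.94% to 17.48% for genes of 1 to 2 FPKM, 8.13% to 9.26% for 2 to 10 FPKM and 5.09% to 5.64% for 10 to 100 FPKM. They were given for each library by itself, so they do not cover the scatter between replicate treatments. Members and gene lists were chosen with earlier results of these data known. For each list around the members, the text names the called gene with the largest change in each direction, and says where others were added. Coordinates of loci are hg19 from the deposited tables, counted from 1, and promoters are GRCh38.p14.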

Additional observations from a re-analysis of the deposited data

Results flagged for a closer look

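In 4 heparan sulfate genes the responses of the lines differed in a test of the difference itself, all as line 2 minus line 1 on the log2 scale. The difference was 1.48 for SULF1, with both treated libraries of line 2 above 43 FPKM. It was -0.41 for HS6ST1, -0.28 for GPC6 and -0.18 for SULF2. Among the genes around the set it was 0.34 for PAPSS2, 0.31 for CHPF, 0.28 for FGF1, -0.19 for TGFBR3, -0.23 for CD44, -0.20 for COL18A1 and -0.26 for VEGFA. Further called differences around the set were 0.54 for CHST15, 0.41 for DSEL, -0.38 for NAGLU, 0.21 for FGF5 and 0.19 for CHST3. Their adjusted p-values in limma were 0.00474, 0.00102, 0.000766, 0.0383 and 0.0487 in that order, and alternative settings are not given for them. Over all genes tested, 9.85% had a called difference. The called differences of SULF2, FGF1, TGFBR3 and COL18A1 were each lost in some alternative settings. Those of SULF1, HS6ST1, GPC6, PAPSS2, CHPF, CD44 and VEGFA held in every setting tried. With 2 lines in all, a property of a line and of its donor or culture cannot be told apart.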

How the results depend on the processing

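Leaving the line out of the fit (no replicate block) left 1 gene higher and 1 lower, against 10 and 7 with it; with line and replicate number as the replicate block, 8 were higher, 6 lower and 5 differed between the lines, although the numbers did not pair the samples (r = 0.052 in 1 line and 0.103 in the other). Apart from the fit without the line, 13 of the 17 calls held in every setting in which the gene was tested. GPC4 and XYLT1, both among the 13, were not tested at a mean of at least 5 FPKM. The calls of SDC2, XYLT2, EXTL2 and NDST1 were lost in some settings, and none of the 17 changed sign. Leaving out 1 library gave 8 to 9 higher, 5 to 7 lower and 3 to 5 line differences. By ordering alone, 1 gene (SULF2) was ordered in opposite directions in the lines. That count cannot include SULF1, HS6ST1 or GPC6, which moved the same way in both lines by different amounts. Median-ratio scaling split all genes 2316 higher to 2310 lower, against 3072 to 1737, and the members 8 to 9; XYLT2 and EXTL2 lost their calls, and SDC4 (adjusted p = 0.0173) and HS3ST3A1 (0.0267) were called lower. The median of the core proteins was 0.016 at a mean of at least 5 FPKM, where GPC4 was not tested. That of chain modification was -0.003 with no filter, -0.058 at 5 FPKM and -0.054 after scaling, with -0.038 to -0.005 on leaving out 1 library. Uncalled values changed sign: B3GALT6 at -0.0241 after scaling, -0.00222 with array weights and -0.00692 to 0.0392 without 1 library; B3GAT3 at -0.00328 to 0.0787; HS3ST3B1 at -0.0437 to 0.0483; and SULF2 at 0.00146 with array weights and -0.0319 to 0.0183. The cause was not tested. The FGF1 line difference had an adjusted p of 0.46 with a pseudocount of 0.1. The SDC1 line difference was called in some settings, for example after scaling (adjusted p = 0.047). The precision of low genes such as GPC4 and EXTL1 is limited by depth.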
